A study of Mus musculus with 8 samples.

Results

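Chemokines and their receptors were followed in fibrotic mouse livers through 33 genes measured on 8 expression arrays. The genes were those whose array name begins with Ccl, Cxcl, Ccr or Cxcr and a number; each was read from its brightest probe and kept when that probe was well above background, a mark that the scanning software gives, on at least 1 of the 8 arrays. Of 50 matching gene names, 33 passed, among 22669 features that passed in the whole series of 34825 gene names. No contrast between groups entered this choice. Of the 33 genes, 17 were well above background on all 8 arrays, 8 on 4 to 7 arrays and 8 on 1 to 3 arrays.

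The livers came from male mice in which fibrosis had been induced for 5 weeks with TAA (an abbreviation the labels leave unexplained, commonly thioacetamide) or with CCl4 (carbon tetrachloride), both used as liver toxins. The mice were then kept for 2 weeks or 1 week, and every 3 days they received miR-29a, a microRNA known for repressing collagen messenger RNAs, or a negative control oligonucleotide (NC). Each of the 4 combinations of agent (TAA or CCl4) and week (2 or 1) thus had 1 miR-29a array and 1 NC array, with no replicate. All mice had toxin-induced fibrosis and none was given as untreated, strain and age were not given in the sources used here, and the labels do not say if RNA of several animals was pooled.

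Chemokines are small secreted proteins that guide the movement of leukocytes by binding receptors coupled to G proteins on those cells. CXC ligands that carry the ELR motif draw neutrophils through Cxcr2, the interferon-induced ligands Cxcl9, Cxcl10 and Cxcl11 draw activated T cells through Cxcr3, and inflammatory CC ligands such as Ccl2 draw monocytes through Ccr2. Homeostatic ligands such as Cxcl12 and Ccl19 keep cells in place or guide their traffic in tissue without inflammation. In injured liver, Kupffer cells, endothelium, stellate cells and hepatocytes are known sources of chemokines, and recruited monocytes are known to take part in the growth and the resolution of scars.

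Sequences that bear on the readings are given first. The mature miR-29a that the labels name is shown with its seed (bases 2 to 8) in capitals, from RefSeq on GRCm38.p6; the labels do not give the arm, and the 3p arm is printed.
mmu-miR-29a-3p: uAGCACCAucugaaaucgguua
The DNA match to this seed, TGGTGCT, stood in 0 of the 65 probes of the 50 matching genes and in 0.557% of all 55681 probes; probes cover 60 bases of a transcript, so this says nothing of the rest of it.

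The 2 probes of Cxcl11, both on the minus strand of chromosome 5 (mm9), read far apart in level and differ in how particular their letters are. The brightest lies at chr5:92788567-92788626 and the other at chr5:92788640-92788699. The 30 bases shown of the brightest probe are its bases 10 to 39, and the capitals mark the 20-base run it shares with the most other probes; the other probe is shown from its first base.
Cxcl11 brightest probe: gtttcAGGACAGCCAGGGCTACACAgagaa
Cxcl11 other probe: tatacaccttaatttcagcacttgaaaggc
The brightest probe shared a run of 20 bases with 7 probes of other genes, 6 of them at the run in capitals, and with 22 of 32851 promoter windows of RefSeq, whereas the other probe shared such a run with 0 probes and 0 windows. What share of the brightest probe's signal came from Cxcl11 transcripts was not tested, so Cxcl11 is described below from both probes.

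Promoters are printed for Cxcl1, which differed most between the arrays among genes well above background on all of them, and for Cxcl10 and Cxcl9, neighbours on chromosome 5 whose levels moved together by week. Each is the 220 bases upstream of the RefSeq start on GRCm38.p6, read in the direction of the gene: chr5:90891025-90891244 on the plus strand for Cxcl1, chr5:92348890-92349109 and chr5:92328080-92328299 on the minus strand for Cxcl10 and Cxcl9. Capitals mark matches to the NF-kB motif or to GAAANNGAA, the core of the interferon-stimulated response element.
Cxcl1: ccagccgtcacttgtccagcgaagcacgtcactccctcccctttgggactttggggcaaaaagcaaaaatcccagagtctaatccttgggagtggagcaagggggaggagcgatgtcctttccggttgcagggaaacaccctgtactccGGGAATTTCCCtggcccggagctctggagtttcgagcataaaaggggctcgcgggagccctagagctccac
Cxcl10: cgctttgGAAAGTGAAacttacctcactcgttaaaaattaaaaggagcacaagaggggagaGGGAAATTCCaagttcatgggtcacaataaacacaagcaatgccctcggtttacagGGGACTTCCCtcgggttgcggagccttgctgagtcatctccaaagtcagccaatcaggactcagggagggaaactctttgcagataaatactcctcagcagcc
Cxcl9: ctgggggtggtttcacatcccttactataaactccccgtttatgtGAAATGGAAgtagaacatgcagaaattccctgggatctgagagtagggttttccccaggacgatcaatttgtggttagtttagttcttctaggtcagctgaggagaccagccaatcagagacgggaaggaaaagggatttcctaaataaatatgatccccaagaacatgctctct
The Cxcl1 capitals hold overlapping NF-kB matches, 1 on each strand, the Cxcl10 capitals 1 GAAANNGAA match followed by 2 NF-kB matches, and the Cxcl9 capitals 1 GAAANNGAA match. Of the 33 genes, 22 had a promoter entry, and the 250 bases upstream of each start were searched. On either strand the NF-kB motif was found in 4 of these (Ccl9, Ccr6, Cxcl1 and Cxcl10), against 3.899% of all windows, and GAAANNGAA in 6 (Ccl1, Ccl19, Ccr2, Cxcl10, Cxcl14 and Cxcl9), against 7.129% of all windows. TTCNNNGAA was found in 3 of the 22 and 7.02% of windows, and TATAAA in 6 and 12.368%. A match of letters is not a measured site.

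Levels are given as log2 of the processed signal minus the 75th percentile of that array, so that 0 is the 75th percentile of all probes. That percentile lay at a signal of 136 to 219 on the 8 arrays, between 43.9% and 48.4% of spots were well above background, and the lowest level so marked was −3.71 to −2.81. Hepatocyte markers were in place: all 6, among them albumin (Alb), were well above background on all 8 arrays. All arrays shared 1 slide and 1 scan, with the TAA arrays in 1 column of the slide and the CCl4 arrays in the other, so slide column and agent cannot be told apart. In whole liver, fewer cells of a type and less RNA per cell cannot be told apart. Levels are comparable between arrays for 1 probe, not between probes of different genes. Values of 4 arrays are given below in the order TAA 2 weeks, TAA 1 week, CCl4 2 weeks, CCl4 1 week, unless named otherwise.

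The chemokine genes stood highest on the TAA 1-week NC array. There 27 of the 33 were well above background, against 18 on its miR-29a partner and 22 to 25 on the other 6 arrays. Cxcl5, Cxcr2, Ccl7 and Ccl8 passed the filter through that array alone, so they had to be marked there and on no other. Of all spots 45.6% were well above background there and 43.9% on its partner, the lowest share of the 8 arrays. The partner also had the lowest 75th percentile (136) and the highest limit for the mark (−2.81). The median level of the 33 genes was 0.17 on the TAA 1-week NC array and between −2.29 and −1.57 on each of the other 7, while the median over all 22669 features lay near 0 on every array. The TAA 1-week NC array was the highest for 17 of the 33 genes, Cxcl5, Cxcr2, Ccl7 and Ccl8 among them. It was also the highest for 8 of the 17 genes that were well above background everywhere. The share of all features highest on that array was not counted, so these counts have no background beside them.

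**Figure D1:**
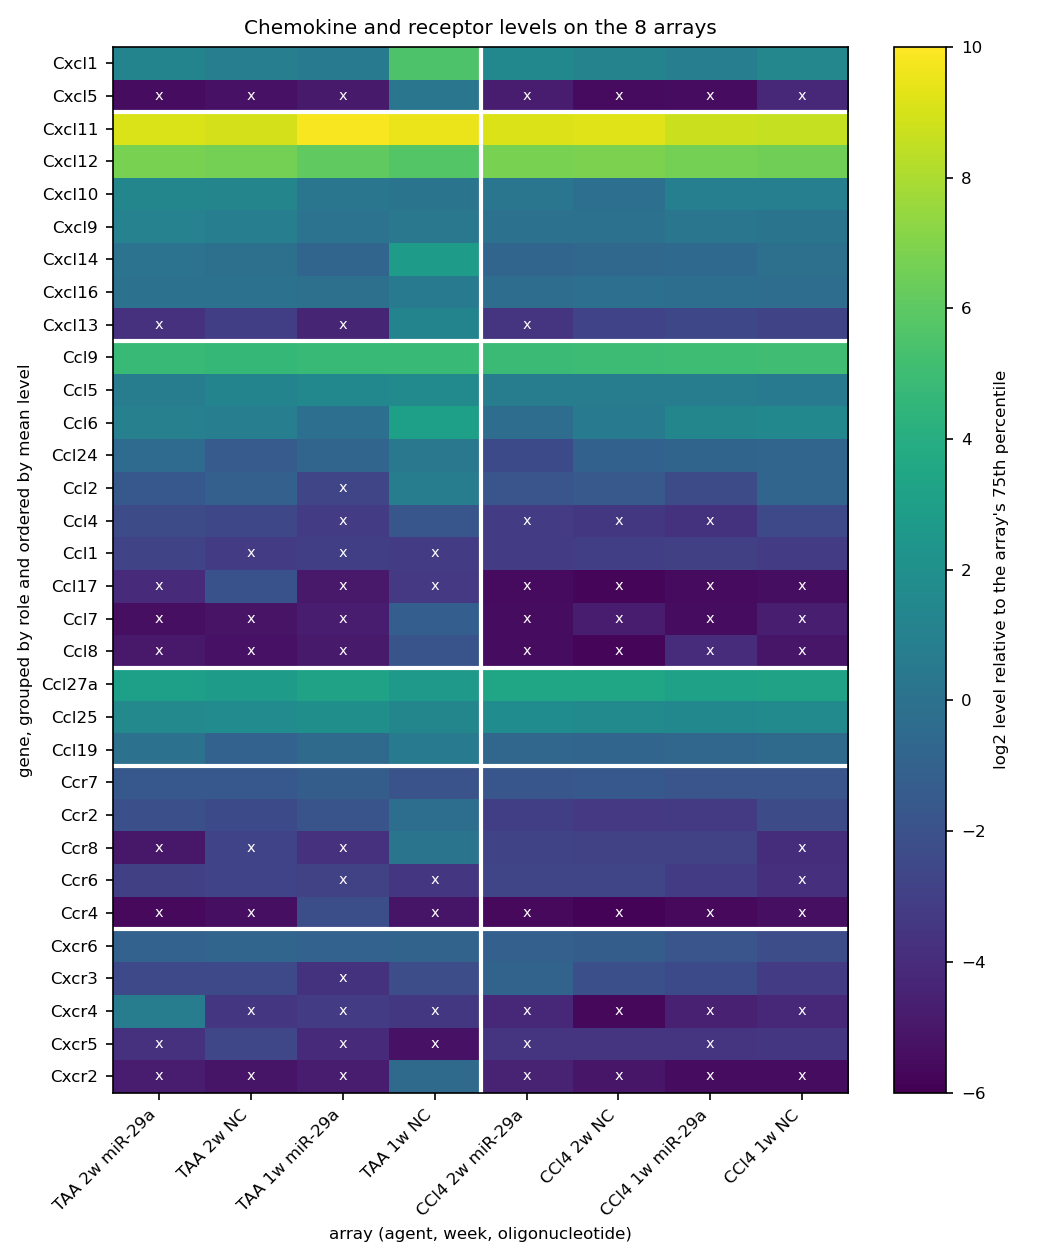
Log2 level of 32 of the 33 genes (rows, grouped by role with white lines, ordered by mean level within a role) on the 8 arrays (columns), relative to the 75th percentile of the array. A white x marks a gene not well above background on that array. The TAA 1-week NC column is bright for Cxcl1, Cxcl14, Cxcl13 and Ccl6, and it is the single column without an x for Cxcl5, Cxcr2, Ccl7 and Ccl8.

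Among the ELR-bearing CXC ligands, Cxcl1, a neutrophil attractant, was well above background on all arrays. Its level was 1.24, 0.67, 1.46 and 0.84 on the miR-29a arrays, against 0.83, 5.51, 1.14 and 1.43 on the NC arrays. The TAA 1-week NC array thus stood alone, with all others between 0.67 and 1.46. Cxcl5, another ELR ligand, was well above background on that array alone (0.28), where Cxcr2, the receptor of both, also had its single such reading (−0.50). Elsewhere Cxcl5 read −5.51 to −4.13 and Cxcr2 −5.48 to −4.41, both not well above background. The ELR ligands Cxcl2, Cxcl3 and Cxcl15 and the receptor Cxcr1 did not reach that mark on any array, the TAA 1-week NC array included. The probes of these ELR ligands lie within chr5:91190490-91334593 (mm9), the known gene cluster.

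Of the 8 other CXC ligand names, 6 were well above background on all arrays. Cxcl12, the Cxcr4 ligand that retains stem cells and lymphocytes in tissue, read 6.75, 6.07, 6.76 and 6.65 on the miR-29a arrays and 6.64, 5.73, 6.86 and 6.55 on the NC arrays. Its lowest readings were those of the TAA 1-week arrays, and the other probe of the gene was lowest there too, at 2.55 (miR-29a) and 2.58 (NC) against 3.48 to 3.71 on the other 6 arrays. Cxcl14, a ligand of monocytes and dendritic cells, read 0.10, −0.76, −0.81 and −0.55 on the miR-29a arrays and −0.12, 2.76, −0.59 and −0.11 on the NC arrays, again with the TAA 1-week NC array apart. Cxcl13, which draws B cells through Cxcr5, was well above background on 5 arrays, reading 1.24 on the TAA 1-week NC array and −3.02 to −2.51 on the 4 others of those 5. Cxcl16, the transmembrane ligand of Cxcr6, moved little, from −0.30 to 0.55, with its highest reading on the TAA 1-week NC array and the next at 0.01. Cxcl17 was not well above background on any array.

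The inflammatory CC ligands were led by Ccl9, a myeloid attractant of rodents, at 4.68 to 5.11 on all arrays. Ccl6, a related rodent ligand made by myeloid cells, read 0.94, −0.18, −0.28 and 1.33 on the miR-29a arrays and 0.84, 3.02, 0.50 and 1.45 on the NC arrays. Ccl24, an eosinophil attractant, ran from −2.38 on the CCl4 2-week miR-29a array to 0.38 on the TAA 1-week NC array, and its median over the 7 arrays without TAA 1-week NC was −0.84. Ccl5, a ligand of T cells and macrophages, stayed between 0.59 and 1.67. Ccl7 and Ccl8, monocyte attractants, were well above background on the TAA 1-week NC array alone, at −1.21 and −1.86. Ccl17, a Ccr4 ligand, was so on the TAA 2-week NC array alone, and Ccl1, a Ccr8 ligand, sat close to the detection limit at −3.25 to −2.74. For Ccl1 this is the brightest probe, and its other probe was not well above background on any array. The ligands Ccl3, Ccl11, Ccl12, Ccl20, Ccl22 and Ccl26 were not well above background on any array.

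All 3 homeostatic CC ligands among the members were well above background on all arrays. Ccl27a, a ligand of skin-homing T cells through Ccr10, read 2.61 to 3.47 and Ccl25, which guides T cells to thymus and gut through Ccr9, read 1.35 to 1.95. Neither receptor, Ccr9 nor Ccr10, was well above background on any array, and neither was the mucosal ligand Ccl28. Ccl19, a Ccr7 ligand, read 0.63 on the TAA 1-week NC array and −0.96 to 0.05 elsewhere, but its 2 other probes read −0.80 and −0.77 there, where 1 was highest by a margin of 0.05 and the other was not highest, so its probes disagree. Ccl19 and Ccl27a have near-identical gene copies in the mouse genome, so their readings may hold several copies.

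Receptors were dimmer than ligands in the sense that fewer passed: 3 of 17 receptor names were well above background on all arrays (Ccr2, Ccr7 and Cxcr6), against 14 of 33 ligand names.
Ccr2, the receptor through which Ccl2 draws monocytes, read −2.09, −1.84, −3.02 and −3.29 on the miR-29a arrays and −2.41, −0.24, −3.36 and −2.28 on the NC arrays. Ccr7, the homing receptor of dendritic cells and naive T cells, was nearly level at −1.90 to −1.30. Cxcr6, found on liver-resident T and NK cells, ran from −2.20 to −0.79. Cxcr3, the T cell receptor for Cxcl9, Cxcl10 and Cxcl11, was highest on the CCl4 2-week miR-29a array (−0.93), next at −2.09, and not well above background on the TAA 1-week miR-29a array. Single arrays held the only such readings of Cxcr4, the Cxcl12 receptor (0.79 on the TAA 2-week miR-29a array, −5.67 to −3.25 elsewhere), and of Ccr4, the receptor of Ccl17 (−2.13 on the TAA 1-week miR-29a array). Ccr8 read 0.13 on the TAA 1-week NC array and at most −2.71 elsewhere, but its other probe was not well above background on any array. Ccr6 was well above background on 5 arrays at −3.13 to −2.63 and Cxcr5 on 3 arrays. Ccr1, Ccr1l1 and Ccr3 passed on no array.

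The effect of the oligonucleotide was read from 4 matched pairs of arrays (miR-29a minus NC). A member was counted as changed over 2-fold in a pair from its measured difference or, where 1 array of the pair was not well above background, from a bound that sets the dim side at the higher of its own level and the lowest level marked well above background on that array. In the TAA 1-week pair 14 of 28 genes were over 2-fold lower with miR-29a, where 6.75% of all features tested were, and 0 were over 2-fold higher, where 4.82% of features were. Over features well above background on all 8 arrays, 6 of 17 genes were over 2-fold lower in that pair (Ccl19, Ccl24, Ccl6, Ccr2, Cxcl1 and Cxcl14), where 4.24% of features were. Cxcl5, Cxcr2, Ccl7 and Ccl8 entered the 33 through the TAA 1-week NC array alone and so had to be lower in its partner.

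Among genes measured on both arrays of that pair Cxcl1 had the largest fall, reading 0.67 on the miR-29a array and 5.51 on the NC array, a 28.65-fold lower level. Cxcl14 was 11.5-fold lower and Ccl6 9.17-fold lower. Ccl2, a monocyte attractant, was at least 10.55-fold lower, since it read 0.75 on the NC array and was not well above background on the miR-29a array. Cxcl13 was at least 16.55-fold lower, Cxcl5 at least 8.53-fold lower, Ccr8 at least 7.70-fold lower and Cxcr2 at least 4.96-fold lower. For Ccr8 this rests on its brightest probe, since its other probe was not well above background on any array. The receptor Ccr2 lay 3.04-fold lower as well, whereas Cxcl9, Cxcl10, Cxcl11, Cxcl12, Ccl5, Ccl9 and Cxcr6 differed by at most 1.29-fold between these 2 arrays. With 1 array a side, none of these single-pair differences has a test.

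The 3 other pairs showed few such differences. In the TAA 2-week pair 2 of 27 genes were over 2-fold higher with miR-29a (Ccl19 and Cxcr4), where 2.6% of features were, and 1 was over 2-fold lower (Ccl17), where 2.65% were. In the CCl4 2-week pair 1 of 25 was higher (Cxcr3), where 1.83% of features were, and 1 was lower (Ccl24), where 1.2% were. In the CCl4 1-week pair 0 of 26 were higher, where 1.39% of features were, and 2 were lower (Ccl2 and Ccr2), where 2.02% were. Counts of 0 to 2 genes are too small to set against these shares.

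**Figure D2:**
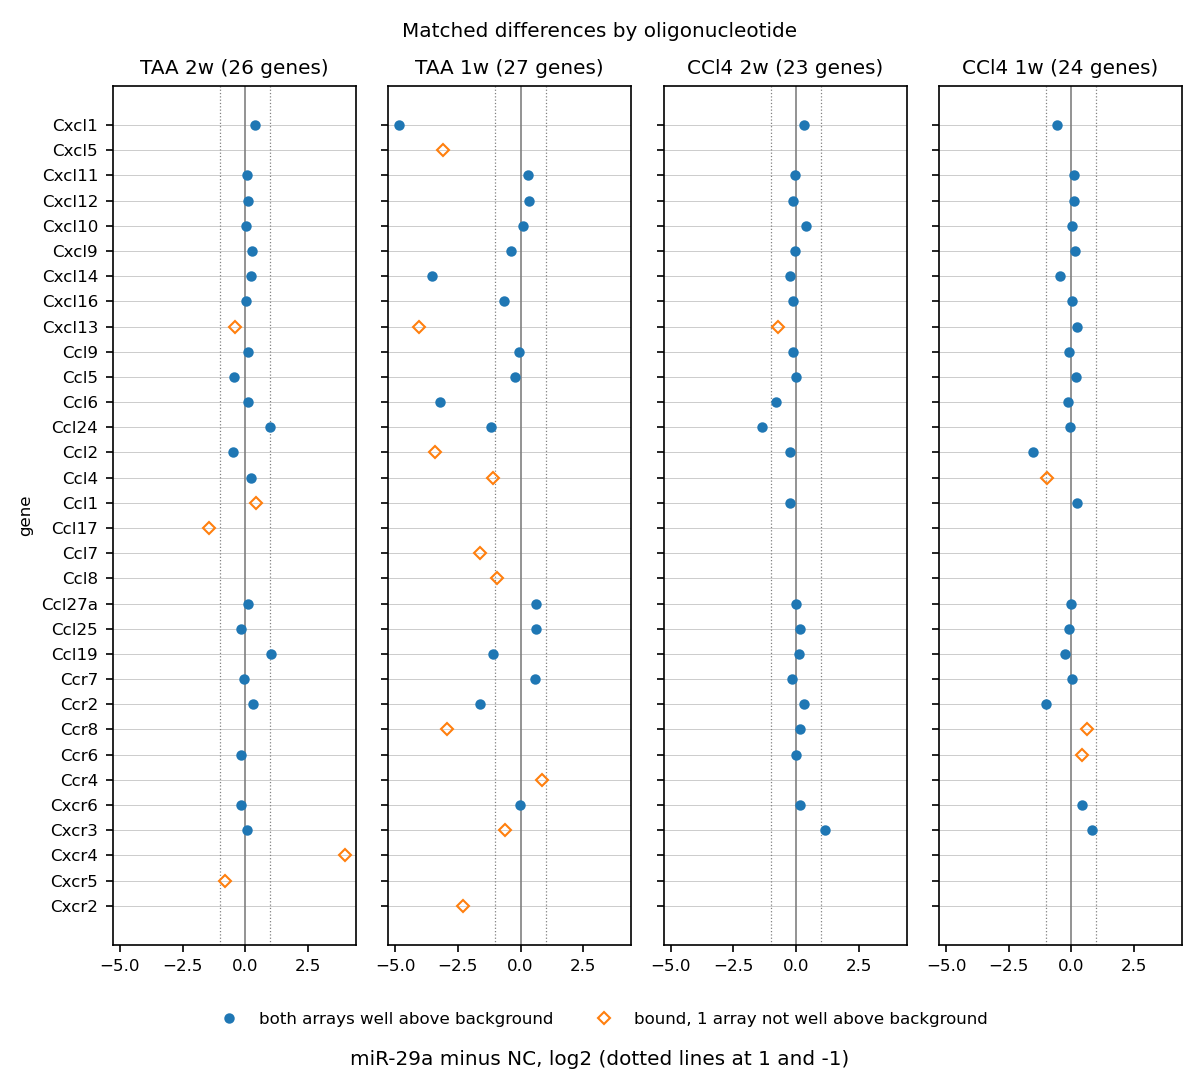
Log2 difference, miR-29a minus NC, of the same 32 genes (rows) in the 4 matched pairs of arrays (panels); filled circles have both arrays well above background, open diamonds are bounds, and genes with neither array well above background, or with no bound, have no point. In the TAA 1-week panel 13 of the 27 plotted genes lie beyond −1, and in the other panels most genes lie between −1 and 1.

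Over all 4 pairs no chemokine gene passed the test. In an additive limma fit of agent, week and oligonucleotide with Benjamini-Hochberg adjustment over all 22669 features, 0 of the 33 genes had an adjusted p under 0.05 for miR-29a against NC, where 0% of all features did. At an unadjusted p under 0.05 there was 1 gene (Ccl2), where 2.54% of features were. The median difference over the 33 genes was −0.13 log2, against 0.03 over all features, and without the TAA 1-week NC array it was −0.03. Over the 17 genes well above background on all arrays it was −0.04, against 0.03 over such features. Only 3 of the 33 genes kept 1 sign in all 4 pairs (Ccl2, Ccl7 and Cxcl10), where 15.8% of features did. Ccl7 was well above background on the TAA 1-week NC array alone. Its sign was thus fixed by the filter in the TAA 1-week pair and rested on dim readings in the others.

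Ccl2 read −1.59, −2.65, −1.78 and −2.29 on the miR-29a arrays, against −1.12, 0.75, −1.54 and −0.76 on the NC arrays. The groups did not overlap, though narrowly: the highest miR-29a array read −1.59 and the lowest NC array −1.54. The mean difference was −1.41 ± 0.53 log2 (SE of the limma fit, n = 4 pairs; adjusted p = 0.9996), and −0.88 ± 0.36 without the TAA 1-week NC array. With normexp background correction it was −0.72. Cxcl10 was the gene of constant higher sign, at 0.14 ± 0.42 log2 (SE of the fit, n = 4 pairs; limma adjusted p = 0.9996). Its 4 differences were 0.02 to 0.41, and its fitted sign turned when any of 4 single arrays was left out (−0.17 at the lowest). With the mean of its probes it was 0.40, but its other probe was not well above background on any array (−5.95 to −4.09).

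The agents were compared in the same fit, TAA minus CCl4. Of the 17 genes well above background on all arrays, 14 had a mean difference above 0, where 35.9% of such features did, and their median was 0.43 log2 against −0.15 over such features. Over all 33 genes the median was 0.50 against −0.08 over all features, but 7 of them (Cxcl5, Cxcr2, Ccl7, Ccl8, Ccl17, Ccr4 and Cxcr4) were well above background on a TAA array alone and so had to lie higher with TAA. Without the TAA 1-week NC array the median over the 33 was 0.15. With each array scaled to its median in place of its 75th percentile, the median of all features moved to −0.47 and that of the 33 genes to 0.11. Such scaling shifts all probes of an array alike, so relative to all features the 33 had to stand at 0.58 under both scalings. Relative to all features they stood at 0.49 with quantile normalization and at 0.36 with normexp background correction. After limma and Benjamini-Hochberg adjustment 0 of the 33 passed an adjusted p of 0.05, where 0% of features did; 5 genes (Ccr2, Cxcr6, Ccl5, Ccl17 and Cxcr4) had an unadjusted p under 0.05, where 23.2% of features did. Constant sign in all 4 pairs was kept by 11 of the 33, 9 of them higher with TAA (Ccl17, Ccr4 and Cxcr4 included), where 37.9% of features kept it, so neither share exceeded the background.

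Of the genes of constant sign, 8 were well above background on at least 4 arrays, and 7 of them are described here, the receptors first. Ccr2 read −2.09, −2.41, −1.84 and −0.24 on the TAA arrays (2-week miR-29a, 2-week NC, 1-week miR-29a, 1-week NC), against −3.02, −3.36, −3.29 and −2.28 on the CCl4 arrays in the same order. The groups overlapped by the CCl4 1-week NC array alone, and the mean difference was 1.35 ± 0.40 log2 (SE of the limma fit, n = 4 pairs; adjusted p = 0.193). Cxcr6 read −0.95, −0.79, −0.94 and −0.90 on the TAA arrays, against −1.08, −1.26, −1.78 and −2.20 on the CCl4 arrays. Here the groups did not overlap, and the mean difference was 0.69 ± 0.21 (limma adjusted p = 0.193); its other probe, which overlaps the first on the transcript, also separated the agents, at −1.84 to −1.29 with TAA against −2.67 to −1.88 with CCl4.

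Ccl5 read 0.79, 1.24, 1.44 and 1.67 on the TAA arrays, against 0.75, 0.76, 0.77 and 0.59 on the CCl4 arrays. The lowest TAA reading lay just above the highest CCl4 reading, and the mean difference was 0.57 ± 0.19 log2 (limma adjusted p = 0.194). The chemokine Ccl4, an attractant of macrophages and T cells not to be confused with the agent CCl4, was well above background on 3 TAA arrays and 1 CCl4 array and differed by 0.74 ± 0.35 (limma adjusted p = 0.249). The fit takes dim arrays at their measured level. Sizes depended on the scaling and background: with normexp the differences were 0.49 for Ccr2, 0.38 for Cxcr6 and 0.27 for the gene Ccl4, and with each array scaled to its median 0.30 for Cxcr6, 0.18 for Ccl5 and 0.35 for the gene Ccl4.

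Cxcl12 and Ccl9 were lower with TAA in 4 of 4 pairs, by 0.41 ± 0.17 and 0.23 ± 0.11 on the log2 scale in size (limma adjusted p = 0.226 and 0.264), although with quantile normalization Cxcl12 stood at −0.10 and the sign of Ccl9 turned, to 0.03. With each array scaled to its median they stood at −0.80 and −0.62, but the median of all features then moved to −0.47. Relative to that of all features they had to stand at −0.33 and −0.15 both with this scaling and with the 75th percentile. Cxcl16 was higher by 0.35 ± 0.17 (limma adjusted p = 0.255), or 0.20 without the TAA 1-week NC array, and its sign turned to −0.04 with each array scaled to its median. Relative to the median of all features Cxcl16 had to stand at 0.43 in both settings, since such scaling shifts all probes of an array alike. That value was 0.38 with quantile normalization and 0.30 with normexp.

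**Figure D3:**
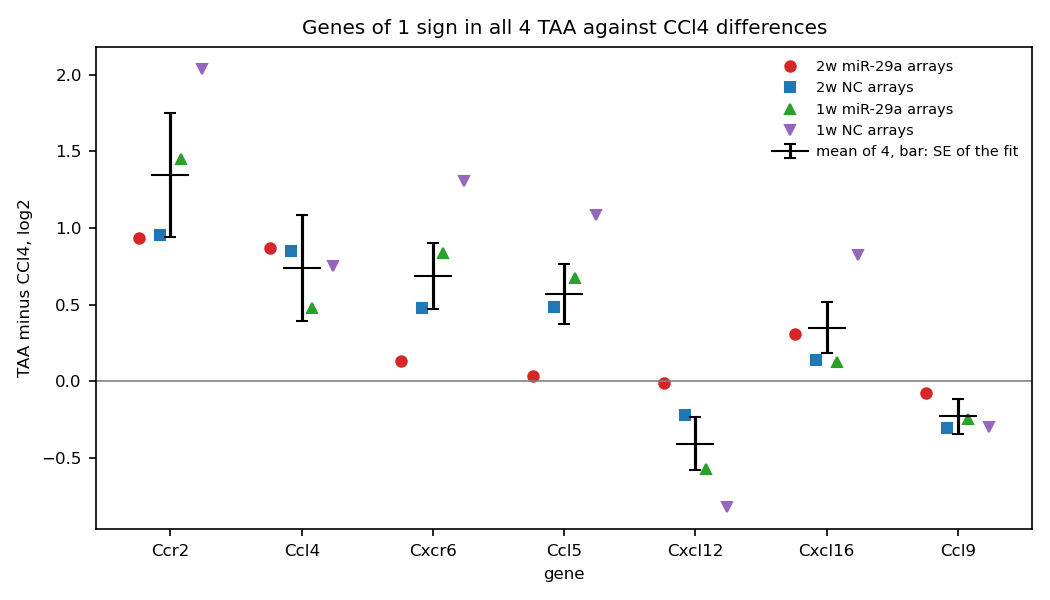
TAA minus CCl4 difference in log2 (vertical axis) of 7 genes that kept 1 sign in all 4 pairs and were well above background on at least 4 arrays; symbols are the 4 matched pairs at their measured levels, and the bar is the mean with the SE of the limma fit. Ccr2 lies between 0.94 and 2.04, and the 1-week NC pair is the highest for Ccr2, Cxcr6, Ccl5 and Cxcl16.

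By matched pair, the 1-week NC arrays differed most between the agents. There 16 of 29 genes were over 2-fold higher with TAA, where 13.7% of features were, and 0 were over 2-fold lower, where 10.8% were. The 16 hold Cxcl5, Cxcr2, Ccl7 and Ccl8, which entered the 33 through the TAA 1-week NC array alone and so could only count as higher. Over features well above background on all arrays, 8 of 17 genes were over 2-fold higher with TAA, where 8.56% were. Cxcl1 read 5.51 on the TAA 1-week NC array and 1.43 on the CCl4 1-week NC array, 16.9-fold higher, Cxcl13 was 15.6-fold higher and Cxcl14 7.29-fold higher. Cxcl5 was at least 14.3-fold, Ccr8 at least 12.9-fold and Cxcr2 at least 8.30-fold higher. The other probe of Ccr8 was not well above background on any array.

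Between the 1-week miR-29a arrays 3 of 24 genes were over 2-fold higher with TAA (Ccr2, Ccr4 and Cxcl11), where 12.4% of features were, and 1 was over 2-fold lower (Ccl6), where 9.86% were. Between the 2-week NC arrays 2 of 27 were higher (Ccl17 and Cxcl10), where 4.01% of features were, and 0 were lower, where 1.4% were. Between the 2-week miR-29a arrays 6 of 25 were higher (among them Ccl24, Ccl6, Cxcl10, Cxcl9 and Cxcr4), where 4.06% of features were, and 1 was lower (Cxcr3), where 1.91% were. The T cell ligands Cxcl9 and Cxcl10 thus joined the genes higher with TAA at 2 weeks. Ccr4, Ccl17 and Cxcr4 each passed the filter on a single TAA array and so could only count as higher.

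Week was compared as 2 weeks minus 1 week. In the additive limma fit 0 of the 33 genes passed after Benjamini-Hochberg adjustment, where 0% of features did, and 2 had an unadjusted p under 0.05 (Cxcl12 and Ccr6), where 4.49% of features did. The median over the 33 was −0.10 log2 against 0.03 over all features, and 0.02 without the TAA 1-week NC array. Over the 17 genes well above background on all arrays it was −0.08, against 0.03 over such features. Of the 33 genes 3 kept 1 sign in 4 of 4 pairs (Cxcl12 higher, Ccl8 and Ccr4 lower), where 12.7% of features did. Ccl8 and Ccr4 were each well above background on a single 1-week array. Their sign was thus fixed by the filter in the pair with that array and rested on dim readings in the others. Cxcl12 was higher at 2 weeks by 0.31 (CCl4 NC), 0.11 (CCl4 miR-29a), 0.91 (TAA NC) and 0.67 (TAA miR-29a). The 2-week arrays (6.64 to 6.86) and the 1-week arrays (5.73 to 6.65) overlapped by 1 reading on each side, and the mean difference was 0.50 ± 0.17 log2 (SE of the limma fit, n = 4 pairs; adjusted p = 0.884).

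In the TAA NC pair 14 of 30 genes were over 2-fold lower at 2 weeks than at 1 week, where 8.67% of features were, and 1 was higher (Cxcl10), where 6.46% were. The 14 hold Cxcl5, Cxcr2, Ccl7 and Ccl8, which entered through the TAA 1-week NC array alone and so could only count as lower. Over features well above background on all arrays, 6 of 17 genes were lower, where 5.11% were. Cxcl1 was 25.6-fold lower, at 0.83 at 2 weeks against 5.51 at 1 week, and Cxcl13 was 19.1-fold lower. These counts, those of the TAA 1-week pair and those of the 1-week NC arrays share the TAA 1-week NC array, so they are not separate observations.

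In the TAA miR-29a pair 5 of 25 genes were over 2-fold higher at 2 weeks (Ccl2, Ccl6, Cxcl10, Cxcl9 and Cxcr4), where 4.02% of features were, and 1 was lower (Ccr4), where 5.35% were. Cxcr4 and Ccr4 each passed the filter on a single array of this pair, so their directions were fixed by the filter. In the CCl4 NC pair 1 of 26 was higher (Cxcr3), where 4.29% of features were, and 3 were lower (among them Ccr2 and Cxcl10), where 3.42% were. In the CCl4 miR-29a pair 1 of 23 was higher (Cxcr3), where 5.03% of features were, and 2 were lower (Ccl24 and Ccl6), where 2.61% were. Cxcl10 was thus over 2-fold higher at 2 weeks in both TAA pairs and over 2-fold lower in 1 CCl4 pair.

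The Cxcr3 ligands were named for their agent by week difference after their values were seen. Cxcl10 read 1.33 and 1.31 at 2 weeks (miR-29a and NC) against 0.25 and 0.17 at 1 week with TAA, and 0.28 and −0.13 at 2 weeks against 0.92 and 0.88 at 1 week with CCl4. The 2-week arrays were thus the higher ones with TAA and the lower ones with CCl4, with no overlap within an agent. The change from week to week differed between TAA and CCl4 by 1.93 ± 0.22 log2 (SE of the limma fit with 1 interaction term; unadjusted p = 5.39e-04, adjusted p = 0.0627). This rests on the brightest probe of Cxcl10, since its other probe was not well above background on any array.

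Cxcl9 moved the same way, at 1.11 and 0.86 at 2 weeks against 0.07 and 0.43 at 1 week with TAA, and −0.03 and 0.01 against 0.30 and 0.14 with CCl4, a difference between agents of 0.97 ± 0.28 log2 (limma adjusted p = 0.133). Its other probe showed the same order, at 0.09 and −0.01 at 2 weeks against −1.02 and −1.06 at 1 week with TAA, and −0.87 and −1.40 against −0.61 and −0.69 with CCl4. Cxcl11 moved the other way, by −1.18 ± 0.21 log2 between agents (limma adjusted p = 0.0714). Its brightest probe read 9.07 and 8.99 at 2 weeks against 9.84 and 9.53 at 1 week with TAA, and 9.16 and 9.21 against 8.72 and 8.62 with CCl4, and its other probe ran in parallel at a lower level, 2.83 and 2.83 against 3.65 and 3.38 with TAA and 2.85 and 2.94 against 2.24 and 2.14 with CCl4.

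**Figure D4:**
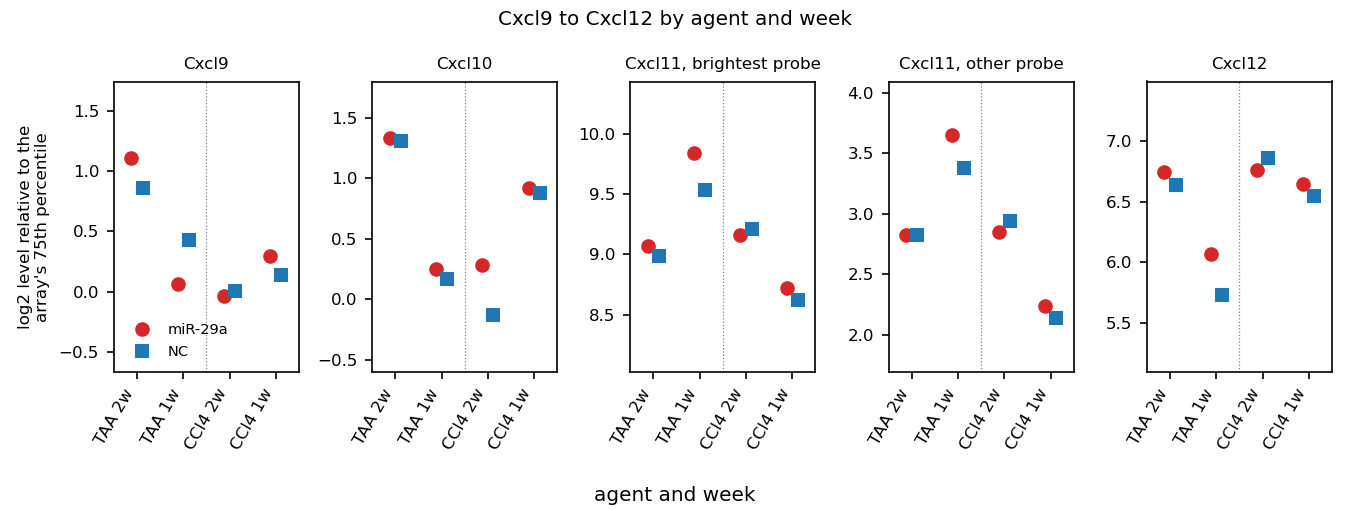
Log2 level relative to the 75th percentile of the array (vertical axis, the same span of 2.4 in each panel) of Cxcl9, Cxcl10, both probes of Cxcl11, and Cxcl12 by agent and week; circles are miR-29a arrays and squares NC arrays. Cxcl9 and Cxcl10 are higher at 2 weeks than at 1 week with TAA and lower with CCl4, and both Cxcl11 probes run the opposite way.

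For the agent by week term 0 of the 33 genes passed after adjustment in limma, where 0% of features did, and 4 had an unadjusted p under 0.05 (Cxcl10, Cxcl11, Cxcl9 and Cxcr6), where 24.3% of features did, so the share among chemokine genes was not above the background. For oligonucleotide by week 0 passed, where 0% of features did, and 3 had an unadjusted p under 0.05 (Ccl2, Ccl4 and Ccr2), where 1.94% did. For oligonucleotide by agent 0 passed, where 0% of features did, and 1 had an unadjusted p under 0.05 (Ccl17), where 2.01% did. Ccl17 entered the 33 through the TAA 2-week NC array alone, so its value sets that reading against dim ones. For agent by week the number called was 3 with normexp background correction (Cxcl10, Cxcl11 and Cxcl12), and 2 (Cxcl10 and Cxcl11) with an intensity trend in limma or with features limited to those well above background on at least 4 or on all 8 arrays.

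Markers of leukocytes moved with the chemokine genes on the TAA 1-week NC array. Of 10 neutrophil markers 9 were measured, and their summed linear level was 462 times the 75th percentile there against 91.9 to 165 on the other arrays. All 9 were well above background on that array and 6 or 7 elsewhere; Ngp and Mpo, granule proteins of young neutrophils, were so on that array alone, while Ly6g (−0.03) lay inside its range of −0.75 to 0.38 elsewhere. The sum elsewhere is set largely by Csf3r, which read 7.01 on the TAA 1-week NC array and 7.30 on its miR-29a partner, and Elane was flat (2.07 against 1.63 to 2.08 elsewhere). S100a9 (7.89 against 1.42 to 2.39) and S100a8 (6.02 against −1.39 to 0.29) stood apart on the TAA 1-week NC array. Of the 9, 6 were over 2-fold lower on its miR-29a partner. The 8 Kupffer cell markers summed to 319 there against 40.8 to 75.3 elsewhere, and 8 of 8 were over 2-fold lower on its miR-29a partner, where 6.75% of all features were. The part of neutrophil or Kupffer cell content in the chemokine levels was not tested.

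Other lists moved less. The 8 measured of 11 monocyte and macrophage markers summed to 37.8 on the TAA 1-week NC array against 13.1 to 34.2 elsewhere, with 5 of 7 over 2-fold lower on the miR-29a partner; the myeloid integrin Itgam read 4.81 on that partner and 4.28 on the NC array. The 8 measured T and NK cell markers summed to 33.8 there against 39.6 to 51.8 elsewhere, a sum set largely by Cd4 (4.54 against 4.93 to 5.42), while Cd3d (−1.75) and Cd3g (−2.30) were highest on that array. The 6 hepatocyte markers summed to 3473 against 3988 to 4931. For B and plasma cells the sums were 2.75 against 2.53 to 3.84, for dendritic cells 3.21 against 1.19 to 2.03, for stellate cells and myofibroblasts 29.03 against 18.7 to 47.7, and for endothelium 88.7 against 64.7 to 91.4. Lymphatic endothelium (2.25 against 1.12 to 3.09), cholangiocytes (6.21 against 2.29 to 6.62) and mesothelium (2.71 against 1.59 to 15.6) lay inside their ranges.

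**Figure D5:**
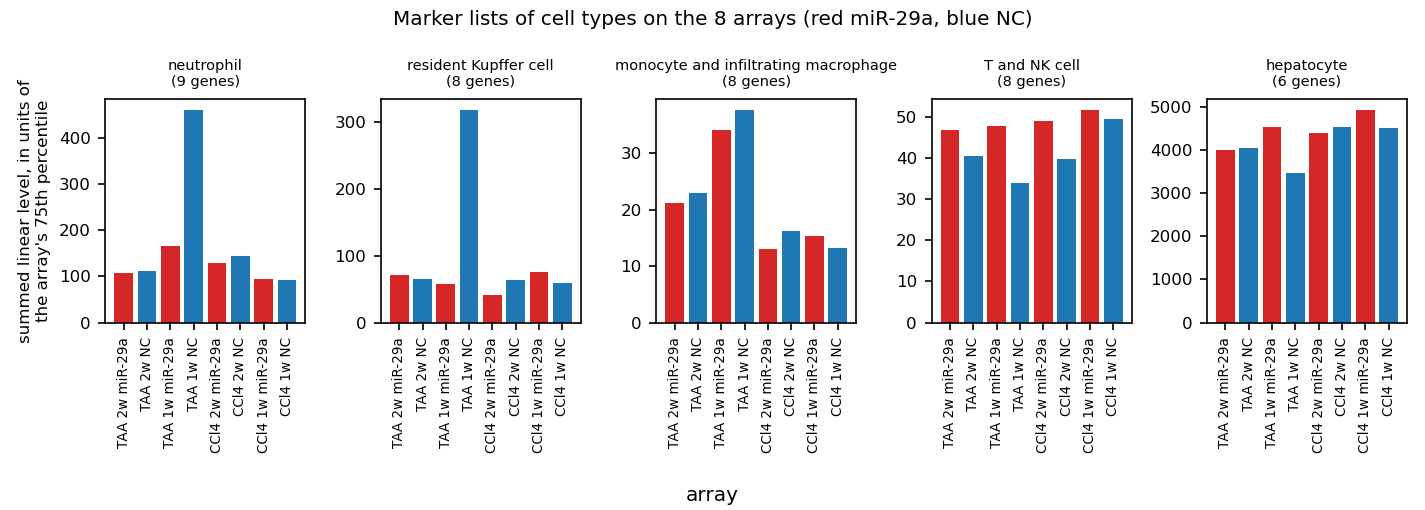
Summed linear level (vertical axis, in units of the 75th percentile of the array, from 0) of the measured markers of 5 cell types on each of the 8 arrays; red bars are miR-29a and blue bars NC. The neutrophil sum of 462 and the Kupffer cell sum of 319 on the TAA 1-week NC array exceed every other bar in their panels.

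Genes that work beside the chemokines were counted from 4 lists, and 0 of their measured genes passed in any of the 3 comparisons of the limma fit. In the TAA 1-week pair 7 of 17 genes of chemokine receptor signalling were over 2-fold lower with miR-29a, where 6.75% of all features were, among them Rac2 (−0.10 on the miR-29a array against 2.28 on the NC array), a GTPase of leukocyte movement, and the Src family kinase Fgr (−2.35 against 0.33). Of adhesion molecules of leukocyte entry 8 of 12 were lower, among them Icam1, Vcam1 (1.22 against 2.83) and the integrin chain Itgb2 (−1.73 against 0.61). Of inducers of chemokine genes 4 of 13 were lower, among them Il1b (−1.61 against 1.18), an inflammatory cytokine, while Rela, the NF-kB subunit p65, read 5.14 against 5.27. Of chemokines and receptors with other names 3 of 7 were lower, among them Ppbp (−2.31 against −0.05), a platelet chemokine, while the fractalkine gene Cx3cl1 read −0.94 against −0.51. In each of these 4 lists 0 genes were over 2-fold higher with miR-29a in that pair, where 4.82% of all features were.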

How the data were processed

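The data were 1-colour (Cy3) Agilent arrays of mouse liver RNA. Spot intensity came from the authors' scans through Feature Extraction 10.10.1.1 of Agilent with its own background subtraction, per the file headers; the deposited flags (other values, 0 or 1 per spot) mark spots well above background, outliers and saturation. In the log2 matrix deposited by the authors each column equalled the log2 processed signal minus 1 constant (within 0.01 for 99.8% of 55657 probes on each array), with column medians from −4.06 to −3.45, so scale and direction were read from the values, and no label describes the step. Probe coordinates are on mm9, per the file headers.

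From the processed intensity, control and outlier spots were left out (24 probes removed), spots of a probe averaged, log2 taken and the 75th percentile of each array subtracted. No spot was saturated. The brightest probe per gene name was used. Differences were fitted over 8 arrays with limma 3.58.1 in R 4.3.3 with data.table, version 1.17.8, using additive terms for oligonucleotide, agent and week (4 residual degrees of freedom) with Benjamini-Hochberg adjustment, and with 1 interaction term (3 residual degrees of freedom). The fit was tested on simulated data. Sequences and figures used Python with pandas and matplotlib. With 1 array per combination, the SEs and p-values rest on how far these arrays depart from the fitted terms. That departure holds interactions left out of the fit together with differences between single arrays, and it is not a spread between replicates. The number of arrays limits the precision.

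Full statistics went to genes past an adjusted p of 0.05 and to the 8 largest mean differences of constant sign among genes well above background on at least 4 arrays. Single values of some genes are not reported here, though the genes stay in the counts and medians. The members and lists were chosen with earlier results of these data known. Alternatives were 4 other scalings or sources of values, 3 filters on dim features, the mean of probes, an intensity trend, matched combinations as a block and leaving out arrays. The labels carry no replicate numbers.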

Additional observations from a re-analysis of the deposited data

Results flagged for a closer look

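Dixon's criterion for 4 values was applied to the 4 matched differences of each gene given full statistics and of the median over the 33 genes in each comparison. In 3 of these sets 1 value lay far from the other 3. Chance gives that in about 1 of 20 sets, but the genes were chosen for constant sign, so that share need not hold for them. For miR-29a minus NC the median over the 33 genes was −1.08 in the TAA 1-week pair, and for TAA minus CCl4 it was 1.01 between the 1-week NC arrays; both hold the TAA 1-week NC array. For Cxcl10 the CCl4 2-week difference, miR-29a minus NC, was 0.41.

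Among the chemokine genes well above background on all 8 arrays, 8 moved in opposite directions between 2 settings of the same contrast. By the brightest probe this held in every pair of arrays concerned. How many of all features did so was not counted, so this number cannot be read as a trait of the chemokine genes. For 2 weeks minus 1 week, Cxcl10 averaged 1.11 with TAA and −0.83 with CCl4, Cxcl9 0.73 with TAA and −0.23 with CCl4, and Cxcl11 −0.66 with TAA and 0.52 with CCl4; the agent by week term of limma gave adjusted p = 0.0627, 0.133 and 0.0714. For miR-29a minus NC, Cxcl1 averaged 0.36 at 2 weeks and −2.72 at 1 week, Ccr2 0.33 at 2 weeks and −1.31 at 1 week, Ccl19 0.56 at 2 weeks and −0.67 at 1 week, and Ccr7 −0.09 at 2 weeks and 0.31 at 1 week; the oligonucleotide by week term of limma gave each of these 4 an adjusted p of 0.9999. Cxcr6, miR-29a minus NC, averaged −0.10 with TAA and 0.30 with CCl4 (limma adjusted p = 0.9998). None of these differences passed the adjusted threshold in the setting reported. For Ccl19 and Cxcr6 the pattern was not shared by their other probes. Both other probes of Ccl19 were lower with miR-29a in the CCl4 2-week pair and higher in the TAA 2-week pair. The other probe of Cxcr6 was lower with miR-29a in the CCl4 1-week pair (−2.67 against −2.55). In the CCl4 2-week pair that probe was higher (−1.88 against −1.97).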

How the results depend on the processing

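Single-gene signs turned for Cxcl16, TAA minus CCl4, with each array scaled to its median (−0.04), for Ccl9, TAA minus CCl4, with quantile normalization (0.028), and for Cxcl10, miR-29a minus NC, when arrays were left out (−0.17 to 0.41; negative without CCl4 1-week miR-29a, CCl4 2-week NC, TAA 1-week NC or TAA 2-week miR-29a). The number of the 33 genes called for agent by week was 0 as reported, 3 with normexp background correction (Cxcl10, Cxcl11 and Cxcl12), and 2 each with features well above background on at least 4 arrays, on all 8 arrays, and with an intensity trend (Cxcl10 and Cxcl11 each time); leaving out single arrays gave 0 to 1, the 1 being Cxcr2 without TAA 1-week miR-29a. Over all features, TAA minus CCl4 gave 0 calls as reported, 6 on features well above background on all 8 arrays, 6 with an intensity trend, and 0 to 1 when an array was left out (1 without TAA 1-week NC). The cause of these changes was not tested. Cxcr2 entered the 33 through the TAA 1-week NC array alone, so its agent by week call set that array against dim readings. The other 200 values of single genes kept their direction and side of the threshold. The other 219 values of main results kept their count or, for medians over the 33 genes, moved by less than the SD between matched pairs; among these the median for 2 weeks minus 1 week changed sign, to 0.02, without TAA 1-week NC. With matched combinations as a block no call changed. Slide or scan as a block was not run, because all arrays share 1 slide and 1 scan. Taking Cxcl11 by its other probe, an alternative chosen after seeing the data, gave medians over the 33 genes of −0.13 (miR-29a minus NC), 0.51 (TAA minus CCl4) and −0.10 (2 weeks minus 1 week). Genes near background, such as Ccl1, Ccr6 and Cxcr5, have low precision, and 1 array per combination sets the limit for all.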
